A study of Mus musculus with 16 samples.

Results

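The genes described here are 10 members of the semaphorin, plexin and neuropilin families: the ligands Sema6d, Sema4a, Sema4b and Sema4d, the receptors Plxna1, Plxnb2, Plxnc1 and Plxnd1, and the co-receptors Nrp1 and Nrp2. They were selected by symbol, with earlier results of these data known, from the 35275 genes of the deposited count table, and each symbol matched 1 row. Sema6d was chosen because its count was much lower after TGF-β1 in these same libraries, so its TGF-β1 values are a description with no test. All 10 passed the filter on low counts, which kept 13080 genes of the table. Outside Sema6d the lowest count of a member in any library was 67, while Sema6d had as few as 9 reads after TGF-β1 and passed on its level in the untreated groups.

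RNA was sequenced from macrophages grown from the tibial marrow of C57BL/6 mice in 16 libraries, 4 in each of 4 groups. The groups were Smad7 fl/fl + CAGGCre-ER cells exposed for 4 hours to TGF-β1 at 10 ng/ml (KO TGF-β1), the same genotype left untreated (KO untreated), Smad7 fl/fl cells given TGF-β1 (fl/fl TGF-β1) and Smad7 fl/fl cells left untreated (fl/fl untreated). TGF-β1 is a cytokine that signals through Smad proteins, and Smad7 is the inhibitory Smad that its own pathway induces. All mice, the fl/fl controls included, received tamoxifen at 20 mg/kg for 5 days at 1 month of age, and marrow was taken 2 weeks later. The Cre recombinase is driven by the CAGG promoter, which is active in most cell types, so deletion was not limited to macrophages. All cells grew in CSF-1 (12 ng/ml for 24 hours, then 120 ng/ml for 48 hours) with 15% serum, and were starved of serum for about 12 hours before treatment.

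Semaphorins are secreted or membrane-bound proteins that were first known for steering growing axons and that also act between immune cells. They bind plexins, whose intracellular part switches off small GTPases of the Rap family and thereby loosens adhesion and remodels the cytoskeleton. Neuropilins have short intracellular tails and act as co-receptors, for secreted semaphorins together with plexins and for vascular endothelial growth factors. Membrane-bound semaphorins can also signal backwards into the cell that carries them, and Sema6d in mouse macrophages is known for such reverse signalling. Plxna1 forms a receptor complex for Sema6d with Trem2 and Tyrobp in mouse dendritic cells and osteoclasts.

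Total counts per library ran from 16865591 to 23741079. The 10 macrophage markers, Adgre1 among them, were above 1 CPM in every library and summed to 17603 CPM or more. Under 1 CPM in every library were 8 of 8 T and NK cell, 6 of 7 B cell and 7 of 9 stromal and fibroblast markers. So were 4 of 10 neutrophil and 2 of 7 osteoclast markers. The neutrophil list summed to between 34.5 CPM (fl/fl TGF-β1) and 73.4 CPM (KO untreated). The osteoclast list summed to between 80.6 CPM (KO untreated) and 151 CPM (fl/fl TGF-β1). Smad7 had 10.3 to 19.7 CPM in KO TGF-β1 libraries against 37.3 to 58.3 CPM in fl/fl TGF-β1 libraries. In untreated cells it had 1.28, 1.64 and 2.00 CPM in the KO libraries 2, 3 and 4, and 5.87 CPM in the library labelled KO untreated replicate 1, against 3.89 to 6.03 CPM in fl/fl untreated libraries. The count covers the whole gene, so reads from exons outside the deleted part would still be included. That first KO untreated library also stood apart in the TGF-β1 response. Of 2204 genes called for TGF-β1 when the 8 fl/fl libraries were fitted on their own, its level was nearer to the KO TGF-β1 mean than to the mean of the other KO untreated libraries for 92.7%, compared with 21.5%, 9.03% and 6.35% for the libraries labelled KO untreated replicates 2, 3 and 4. Log2 fold changes are therefore plotted with all 16 libraries and again without that library. The text gives both for part of the results.

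Promoter windows are shown for the 3 genes with the steepest differences after TGF-β1, Sema6d, Sema4b and Nrp1, to give the sequence context of the genes on which the TGF-β1 results turn. Sequences are from RefSeq on GRCm38.p6, the build named in the submitters' processing notes, and run from 250 bases before to 50 bases after an annotated start, on the strand of the gene. Capitals mark matches, on either strand, to 4 motifs. Of these, GTCTAGAC is the palindromic Smad element. The Smad box was searched as CAGACA, which may appear in capitals as its reverse complement. The AP-1 site was searched as TGANTCA. The core of PU.1 sites was searched as GAGGAA. In the windows printed no match overlaps another. In the coordinates of the deposited tables Sema6d spans chr2:124089969-124667770, Sema4b chr7:80186841-80226394 and Nrp1 chr8:128359073-128505462, each protein-coding and on the plus strand.
Sema6d, chr2:124089719-124090018, plus strand, upstream start: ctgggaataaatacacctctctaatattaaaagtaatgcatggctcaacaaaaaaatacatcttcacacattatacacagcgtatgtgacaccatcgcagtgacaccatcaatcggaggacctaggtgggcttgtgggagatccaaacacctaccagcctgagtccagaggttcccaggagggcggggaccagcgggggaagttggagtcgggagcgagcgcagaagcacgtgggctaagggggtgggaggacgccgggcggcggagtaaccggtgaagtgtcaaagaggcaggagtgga
Sema6d, chr2:124653331-124653630, plus strand, internal start: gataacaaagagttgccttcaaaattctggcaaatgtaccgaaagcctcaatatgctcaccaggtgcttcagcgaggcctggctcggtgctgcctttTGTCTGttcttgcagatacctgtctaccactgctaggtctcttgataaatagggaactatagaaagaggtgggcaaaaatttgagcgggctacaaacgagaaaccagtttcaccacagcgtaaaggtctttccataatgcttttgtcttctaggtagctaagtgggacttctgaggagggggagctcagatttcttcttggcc
Sema4b, chr7:80186620-80186919, plus strand: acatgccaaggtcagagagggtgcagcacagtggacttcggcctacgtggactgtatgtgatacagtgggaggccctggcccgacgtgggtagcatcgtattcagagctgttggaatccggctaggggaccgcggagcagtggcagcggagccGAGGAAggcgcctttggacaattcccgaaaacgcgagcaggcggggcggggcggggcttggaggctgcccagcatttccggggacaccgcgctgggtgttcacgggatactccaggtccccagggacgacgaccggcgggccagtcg
Nrp1, chr8:128358823-128359122, plus strand: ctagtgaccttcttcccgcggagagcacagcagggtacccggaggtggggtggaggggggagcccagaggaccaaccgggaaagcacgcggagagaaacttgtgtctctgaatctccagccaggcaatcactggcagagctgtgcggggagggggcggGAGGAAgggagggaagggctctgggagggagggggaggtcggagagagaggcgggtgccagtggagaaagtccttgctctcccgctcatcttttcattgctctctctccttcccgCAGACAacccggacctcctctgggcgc

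Over 17 windows of 9 of the 10 genes, GTCTAGAC had no match, against a match in 0.213% of all 32851 RefSeq windows of this length. CAGACA was found in 5 windows, those of Nrp1, Sema4a, Sema4d and Sema6d, and in 21% of all windows. GAGGAA was found in 7 windows, those of Nrp1, Plxnc1, Plxnd1, Sema4a and Sema4b, and in 28.3% of all windows, while TGANTCA was found in 1 window, of Sema4d, and in 7.81% of all windows. The upstream Sema6d window held none of the 4 motifs, and the internal one held 1 Smad box. Both Sema4b windows, of which only the first is printed, held 1 GAGGAA each. The Nrp1 window held 1 Smad box and 1 GAGGAA. A match describes letters in the window and not a bound site. Base composition differed among the windows, from 46.7% G and C in the internal Sema6d window to 71.7% in the second Sema4b window, against a median of 52.7% over all windows.

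The levels of the 10 genes, per length as FPKM, kept nearly the same order in the 4 groups. Group means spanned more than 3 orders of magnitude in the TGF-β1 groups, with Sema6d, the gene chosen for its fall, at the low end. They spanned less in the untreated groups. Plxnb2, a receptor for class 4 semaphorins, was the highest of the 10 in each group mean, with 246 ± 24 FPKM in KO TGF-β1, 185 ± 48.1 in KO untreated, 271 ± 18.1 in fl/fl TGF-β1 and 209 ± 17.5 in fl/fl untreated libraries (SD, n = 4 each). Sema4d, the immune semaphorin also called CD100, came next with 191 ± 20.9, 156 ± 18.2, 187 ± 10.7 and 168 ± 24.6 FPKM in the same groups. Library ranges of Plxnb2 and Sema4d overlapped in all groups but fl/fl TGF-β1. Nrp2 followed at 108 ± 10.8, 111 ± 19.8, 114 ± 4.02 and 132 ± 15.9 FPKM, and overlapped Sema4d in the untreated groups.

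The place of Nrp1 in that order depended on treatment. It had rank 4 in both untreated groups, with 92.2 ± 39.5 FPKM in KO and 129 ± 3.63 FPKM in fl/fl libraries, where its range overlapped that of Nrp2. It had rank 7 in both TGF-β1 groups, with 39 ± 3.69 FPKM in KO and 41.5 ± 3.39 FPKM in fl/fl libraries, below Plxnc1 in every library. Plxnd1, Plxna1 and Plxnc1 followed one another in that order in each group, at mean levels between 44.4 and 101 FPKM. Neighbours among these 3 receptors did not overlap in fl/fl libraries and overlapped in KO TGF-β1 libraries. The 3 remaining semaphorins were the lowest and never overlapped: Sema4a had 7.78 to 12.4 FPKM, Sema4b 0.994 to 5.44 FPKM and Sema6d 0.106 to 1.45 FPKM as group means. Sema6d therefore rested on few reads after TGF-β1, 16 to 42 per KO library and 9 to 22 per fl/fl library.

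Within its family, Sema4d held 87.9 to 89% of the summed FPKM of 20 semaphorins in KO TGF-β1 libraries and 79.5 to 85.2% in KO untreated libraries, and 88.1 to 90.1% in fl/fl TGF-β1 libraries and 82 to 87% in fl/fl untreated libraries. The treated and untreated ranges did not overlap in either genotype. Plxnb2 held 55.6 to 56.8% of the summed FPKM of 9 plexins in KO TGF-β1 libraries and 43.4 to 53.2% in KO untreated libraries, and 52.9 to 53.3% in fl/fl TGF-β1 libraries and 48.6 to 49.5% in fl/fl untreated libraries. These shares, too, were higher in every treated library than in every untreated one of the same genotype. A share also depends on the other genes of its class, and Sema4a and Sema4b fell with TGF-β1, as described below. With all 16 libraries neither Sema4d nor Plxnb2 itself passed the edgeR test for TGF-β1 in either genotype.

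**Figure D1:**
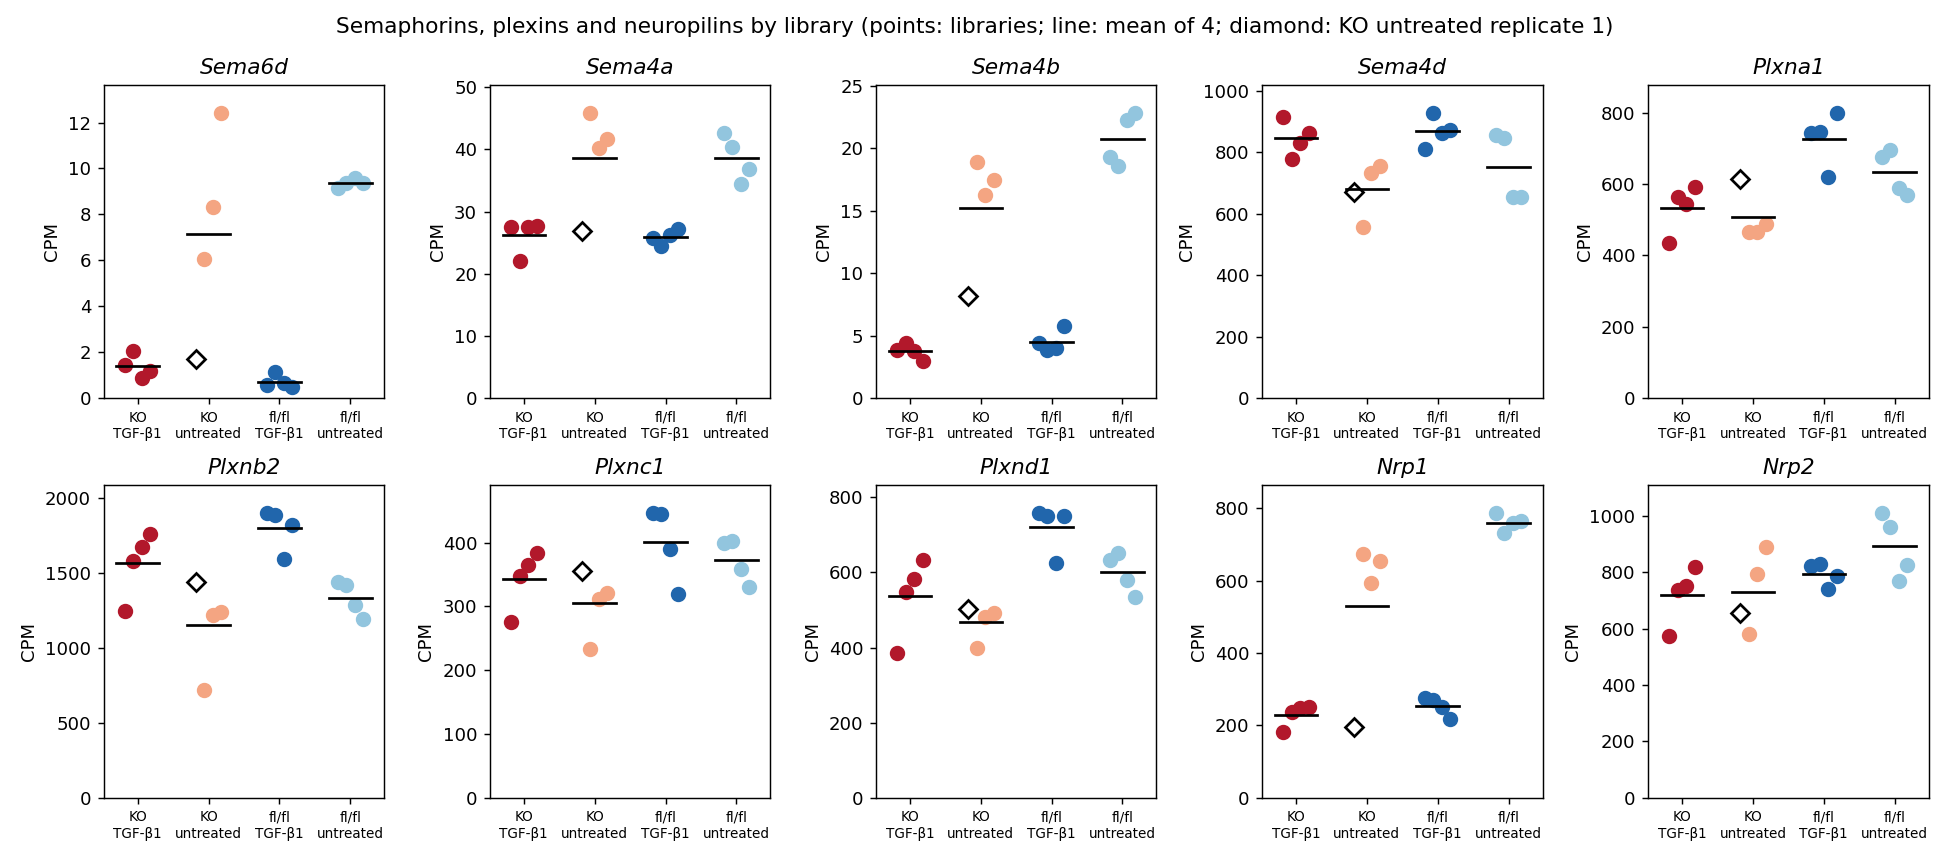
CPM (counts scaled to library size, y axis from 0) of the 10 genes in each of the 16 libraries, grouped on the x axis, with a line at the mean of 4 and a diamond for the library labelled KO untreated replicate 1. Sema4b, Nrp1 and Sema6d are low in the TGF-β1 groups of both genotypes, and the diamond lies with or near the treated libraries for Sema6d, Sema4a and Nrp1.

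Among the ligands, Sema6d had 1.45, 2.06, 0.885 and 1.16 CPM in KO TGF-β1 libraries, against 1.72, 6.06, 8.32 and 12.4 CPM in KO untreated libraries 1 to 4. In fl/fl cells it had 0.546, 1.15, 0.673 and 0.469 CPM with TGF-β1, against 9.15, 9.38, 9.59 and 9.38 CPM untreated. The fl/fl groups were far apart, while in KO cells the lowest untreated library, the one labelled replicate 1, lay among the treated ones and the other 3 lay above them. The log2 fold change was -2.35 ± 0.43 (SE) in KO and -3.71 ± 0.47 in fl/fl cells, with no test because these values chose the gene. By log2 fold change Sema6d stood 38th from the lowest of 13080 genes in KO cells and 10th in fl/fl cells. Without the library labelled KO untreated replicate 1, the KO value was -2.65 ± 0.30.

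Sema4b, a class 4 transmembrane semaphorin, fell with TGF-β1 in both genotypes. It had 3.82, 4.42, 3.76 and 3.00 CPM in KO TGF-β1 libraries, against 8.16, 18.9, 16.3 and 17.5 CPM in KO untreated libraries. Its fl/fl values were 4.37, 3.81, 4.04 and 5.79 CPM with TGF-β1, against 19.3, 18.6, 22.3 and 22.8 CPM untreated. Treated and untreated libraries did not overlap in either genotype, although the library labelled KO untreated replicate 1 was the lowest of the untreated ones. The log2 fold change was -2.02 ± 0.23 in KO (edgeR adjusted p = 0.000715), a level 4.06-fold lower, and -2.21 ± 0.22 in fl/fl cells (edgeR adjusted p = 0.000183), 4.61-fold lower. Of the 13080 genes tested, Sema4b had the smallest p in each of these comparisons when all 16 libraries were fitted. Without that KO library its rank by p was 97 in KO and 100 in fl/fl cells, and the log2 fold changes were -2.20 ± 0.17 and -2.21 ± 0.16.

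Sema4a, a ligand of Plxnd1 and of B-type plexins that acts between immune cells, fell by a smaller amount. It had 27.5, 22.1, 27.6 and 27.7 CPM in KO TGF-β1 libraries, against 26.8, 45.8, 40.2 and 41.7 CPM in KO untreated libraries. The fl/fl TGF-β1 libraries had 25.7, 24.4, 26.2 and 27.2 CPM, against 42.7, 40.4, 34.5 and 36.8 CPM untreated. The fl/fl groups did not overlap, and in KO cells only the library labelled untreated replicate 1 lay within the treated range. The log2 fold change was -0.56 ± 0.14 in KO (edgeR adjusted p = 0.0293) and -0.58 ± 0.14 in fl/fl cells (edgeR adjusted p = 0.00825). Without that library the KO value was -0.67 ± 0.11 (edgeR adjusted p = 0.000206).

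Sema4d, the ligand of B-type plexins and of Cd72, did not pass the test with TGF-β1 in either genotype. It had 914, 777, 831 and 862 CPM in KO TGF-β1 libraries, against 672, 558, 733 and 757 CPM in KO untreated libraries, a log2 fold change of 0.32 ± 0.12 (edgeR adjusted p = 0.15). The KO groups did not overlap, with every treated library above every untreated one. In fl/fl cells it had 811, 927, 862 and 874 CPM with TGF-β1, against 857, 847, 655 and 654 CPM untreated, which overlapped (log2 fold change 0.21 ± 0.12, edgeR adjusted p = 0.29). The values of Sema4d, the most abundant of the semaphorins, lay above 0 in both genotypes, with neither called. Those of Sema4a and Sema4b lay below 0, as did those of Sema6d, which was chosen for its fall. Direction did not follow level among the low semaphorins, since Sema4c, at 1.78 to 8.28 FPKM, rose in both genotypes as described below.

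Of the receptors, Plxnb2 had the highest TGF-β1 values relative to untreated cells, and its call depended on which libraries were fitted. It had 1250, 1582, 1676 and 1764 CPM in KO TGF-β1 libraries, against 1444, 717, 1223 and 1243 CPM in KO untreated libraries. Its fl/fl TGF-β1 values were 1902, 1887, 1595 and 1821 CPM, against 1441, 1421, 1287 and 1192 CPM untreated, without overlap. The log2 fold change was 0.44 ± 0.17 in KO (edgeR adjusted p = 0.149) and 0.43 ± 0.17 in fl/fl cells (edgeR adjusted p = 0.0935), so neither passed with 16 libraries. Without the library labelled KO untreated replicate 1 it rose in KO cells by 0.59 ± 0.17 (edgeR adjusted p = 0.0211). The fl/fl rise passed when the 8 fl/fl libraries were fitted on their own (0.45, edgeR adjusted p = 0.00563) and when KO untreated replicate 2, with its low 717 CPM, was left out of the shared fit (0.43, edgeR adjusted p = 0.0131).

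The other 3 plexins did not pass the test with TGF-β1. Plxna1, a receptor for Sema6d, had 435, 564, 543 and 591 CPM in KO TGF-β1 libraries against 615, 465, 466 and 488 CPM in KO untreated libraries. In fl/fl cells it had 744, 746, 621 and 798 CPM with TGF-β1 against 677, 695, 590 and 568 CPM untreated. Its log2 fold changes were 0.07 ± 0.13 in KO and 0.20 ± 0.13 in fl/fl cells, and the groups overlapped in both. Of its annotated exonic bases 10.7% are shared with the antisense gene Gm26811, which had 45 to 166 counts, and the strand setting of the counting is not given in the sources used here. Plxnc1, the receptor for Sema7a, had 275 to 383 CPM in KO TGF-β1 and 233 to 355 CPM in KO untreated libraries, and 320 to 446 CPM in fl/fl TGF-β1 and 330 to 403 CPM in fl/fl untreated libraries. Plxnd1, the receptor for Sema3e, had 385 to 634 CPM in KO TGF-β1 and 399 to 502 CPM in KO untreated libraries, and 626 to 758 CPM in fl/fl TGF-β1 and 535 to 652 CPM in fl/fl untreated libraries. Both overlapped between treatments in each genotype, with log2 fold changes of 0.17 ± 0.14 in KO and 0.10 ± 0.14 in fl/fl cells for Plxnc1 and of 0.20 ± 0.14 in KO and 0.27 ± 0.14 in fl/fl cells for Plxnd1.

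In the KO groups the plexin levels were low in 1 library each. KO TGF-β1 replicate 1 and KO untreated replicate 2 had the lowest summed FPKM of the 4 plexins in their groups, 367 and 267 FPKM. They also had the shortest mean gene length per read in their groups, 3977 and 3725 bases, and the highest summed FPKM of all genes. The plexin gene models are 6394 to 9025 bases long. In fl/fl TGF-β1 libraries the 2 measures did not go together. Replicate 4 had the shortest mean gene length per read of that group, 4036 bases, and the highest summed FPKM of all genes, while its 4 plexins summed to 521 FPKM and the lowest plexin sum, 454 FPKM, was in replicate 3. In fl/fl untreated libraries the lowest plexin sum, 374 FPKM, was in replicate 4, which also had the shortest mean gene length per read, 4009 bases. The part of gene length per read in the plexin values was not tested.

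Of the co-receptors, Nrp1 fell and Nrp2 did not pass the test. Nrp1, which binds Sema3a and VEGF-A, had 182, 236, 248 and 250 CPM in KO TGF-β1 libraries, against 195, 675, 594 and 654 CPM in KO untreated libraries. Among fl/fl libraries it had 277, 271, 252 and 219 CPM with TGF-β1, against 787, 731, 759 and 766 CPM untreated. Apart from the library labelled KO untreated replicate 1, which lay inside the treated range, every untreated library was above every treated one. The log2 fold change was -1.21 ± 0.26 in KO (edgeR adjusted p = 0.0185), 2.31-fold lower, and -1.58 ± 0.26 in fl/fl cells (edgeR adjusted p = 0.00109), 2.98-fold lower. Without that library the values were -1.46 ± 0.11 (edgeR adjusted p = 3.49e-08) in KO and -1.58 ± 0.11 (edgeR adjusted p = 4.94e-09) in fl/fl cells. In the order of log2 fold changes from the lowest, Nrp1 was 318th of 13080 genes in KO and 247th in fl/fl cells with all libraries.

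Nrp2, which binds Sema3f and VEGF-C, had 574, 736, 751 and 820 CPM in KO TGF-β1 libraries, against 654, 580, 795 and 889 CPM in KO untreated libraries. In fl/fl cells it had 822, 829, 740 and 786 CPM with TGF-β1, against 1010, 960, 771 and 826 CPM untreated. The groups overlapped in both genotypes, with log2 fold changes of -0.02 ± 0.14 in KO (edgeR adjusted p = 0.983) and -0.17 ± 0.14 in fl/fl cells (edgeR adjusted p = 0.484). The ratio of Nrp1 to Nrp2, on FPKM, was 0.347 to 0.376 in KO TGF-β1 libraries, against 0.837, 0.85 and 1.32 in 3 KO untreated libraries and 0.34 in the library labelled KO untreated replicate 1. The fl/fl ratio was 0.318 to 0.388 with TGF-β1, against 0.866 to 1.12 untreated. In bulk RNA, fewer cells of a type and less RNA per cell cannot be told apart. Endothelial cells carry much Nrp1, and the summed level of 8 endothelial markers was 84.9 to 131 CPM in KO TGF-β1 against 35.9 to 83.5 CPM in KO untreated libraries, and 105 to 149 CPM in fl/fl TGF-β1 against 73.2 to 86 CPM in fl/fl untreated libraries. Most of that sum, and of its difference, was Vwf, with medians of 96.4 CPM in KO TGF-β1 and 58.6 CPM in KO untreated libraries, and 136 CPM in fl/fl TGF-β1 and 70.3 CPM in fl/fl untreated libraries. The medians of Kdr, Egfl7 and Tie1 in fl/fl cells were 8.51, 0.213 and 0.157 CPM with TGF-β1 against 9.24, 0.404 and 0.268 CPM untreated. There these 3 markers did not share the direction of the sum. In KO cells they did, with medians of 12.1, 0.408 and 0.49 CPM with TGF-β1 against 11.5, 0.329 and 0.312 CPM untreated. The Cdh5 median was higher with TGF-β1 in KO cells (1.31 against 0.32 CPM) and in fl/fl cells (0.835 against 0.312 CPM). Tek, Emcn and Robo4 were under 1 CPM in every library. The part of such cells in the Nrp1 result was not tested.

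**Figure D2:**
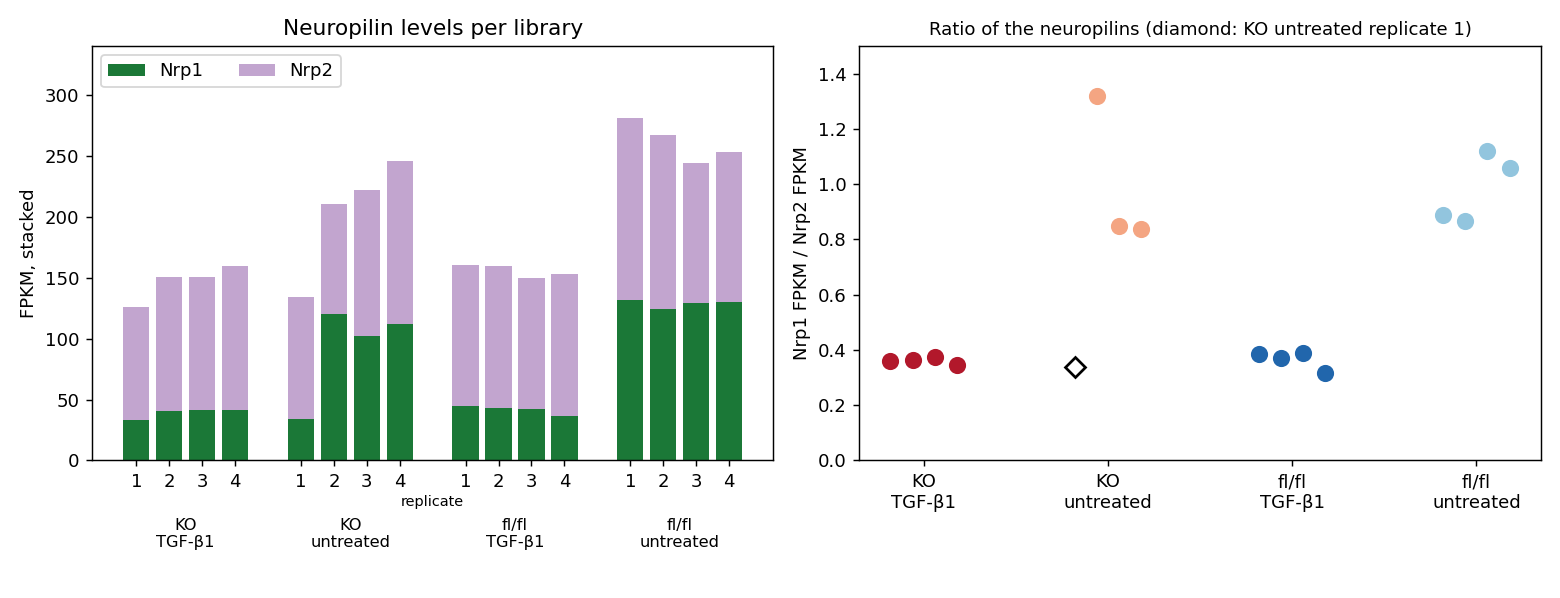
Left, Nrp1 and Nrp2 levels stacked in FPKM (y axis) for each library (x axis, replicates 1 to 4 of each group); right, the ratio of Nrp1 to Nrp2 on FPKM, 1 point per library, with a diamond for the library labelled KO untreated replicate 1. The ratio lies between 0.318 and 0.388 in the TGF-β1 libraries of both genotypes and at 0.34 in the diamond, while the other 7 untreated libraries lie at 0.837 and above.

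Counted together, 3 of the 9 members tested for TGF-β1 fell in KO cells (Sema4a, Sema4b and Nrp1) and 0 rose, where the shares over all genes tested were 2.97% lower and 2.19% higher. In fl/fl cells the same 3 fell and 0 rose, where 7.61% of all genes were lower and 7.87% higher. The members were chosen with earlier results of these data known, so these counts are a description. They also depend on which family genes were listed. Among the tested semaphorins and plexins outside the list, Sema4c and Sema3f rose in KO cells and Sema4c and Plxna4 in fl/fl cells. None of these others fell with all 16 libraries. Here a call is an adjusted p under 0.05 from edgeR's quasi-likelihood test, with Benjamini-Hochberg adjustment over the 13080 genes. Without the library labelled KO untreated replicate 1, 3 fell and 1 (Plxnb2) rose in KO cells, beside 6.88% lower and 8.33% higher over all genes, and 3 fell in fl/fl cells, beside 9.23% lower and 8.91% higher. The median log2 fold change of the 9 was 0.07 in KO and 0.10 in fl/fl cells with all libraries, against -0.03 and -0.01 over all genes. With that KO library left out it was 0.20 in KO and 0.10 in fl/fl cells, against -0.01 and -0.02 over all genes. The fl/fl calls of these 3 held when any 1 of the 16 libraries was left out. In KO cells leaving out KO TGF-β1 replicate 1, 3 or 4, or KO untreated replicate 2, 3 or 4, left 1 gene called, Sema4b, with an edgeR adjusted p of at most 0.0087, and leaving out KO TGF-β1 replicate 2 left Sema4b and Nrp1. With the 8 KO libraries fitted on their own none of the 9 passed, and with KO untreated replicate 1 also left out 3 passed.

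**Figure D3:**
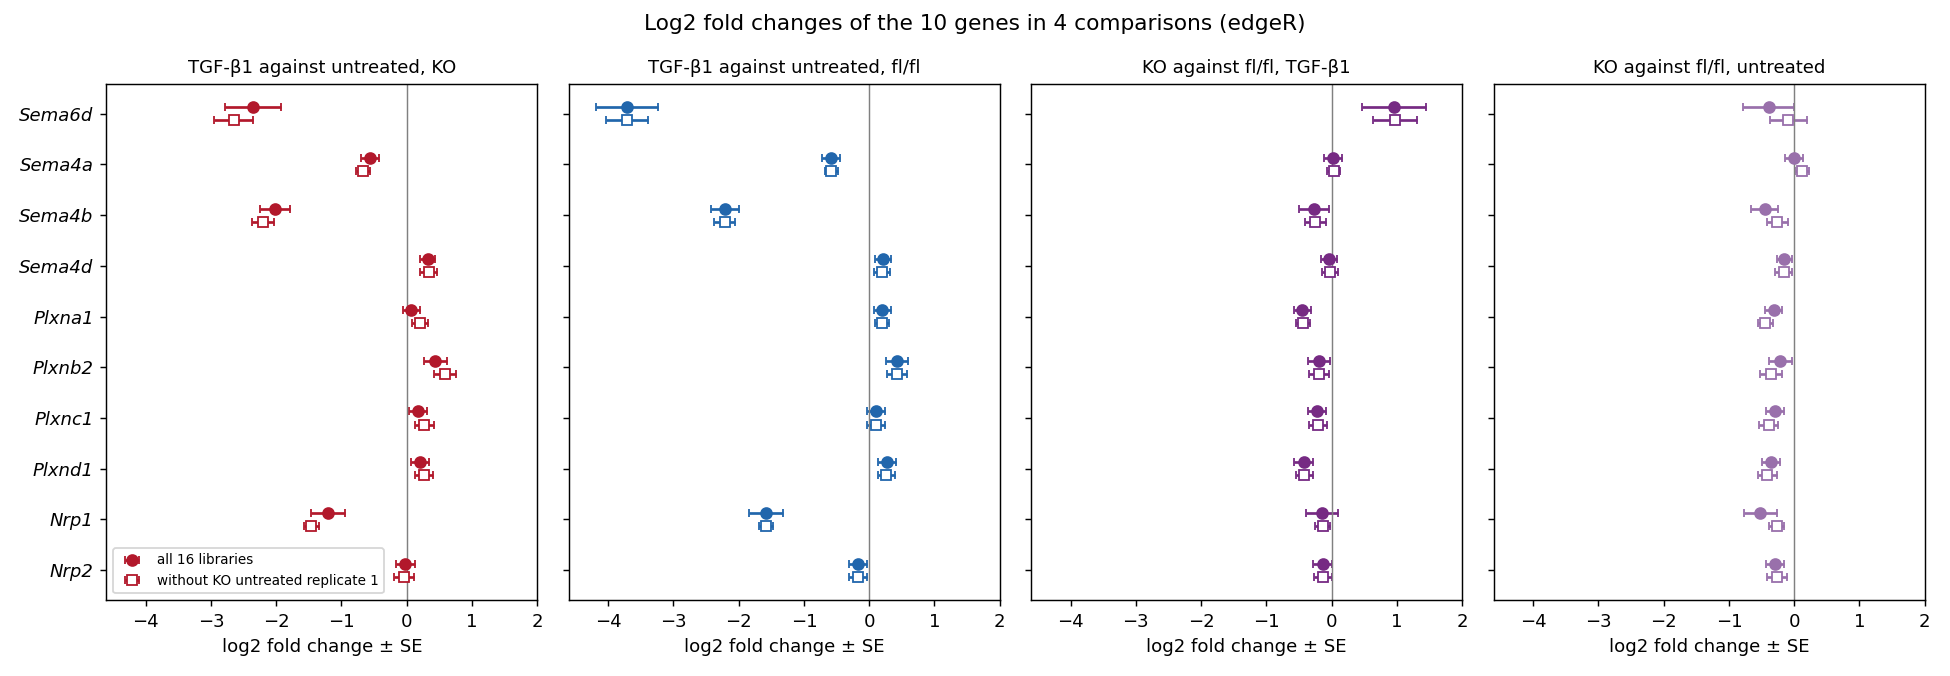
Log2 fold change ± SE (x axis) of each gene (rows) for TGF-β1 against untreated in KO and in fl/fl cells and for KO against fl/fl with TGF-β1 and untreated, from edgeR; filled circles are from all 16 libraries and open squares leave out the library labelled KO untreated replicate 1. Sema4b lies near -2 and Nrp1 between -1.58 and -1.21 in both TGF-β1 panels, and the points of the genotype panels lie within 1 of 0.

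The difference between the genotypes in the TGF-β1 response was tested as an interaction. None of the 9 tested members passed, nor did any of the 13080 genes (0% called, with or without the library labelled KO untreated replicate 1), while 275 genes (2.1% of all, or 1.96% without that library), none of them among the 9 members, had an unadjusted p under 0.05 in edgeR. DESeq2 called 1 gene, not a member. The KO minus fl/fl difference was 0.37 ± 0.36 for Nrp1 and 0.18 ± 0.31 for Sema4b on the log2 scale with all libraries, and 0.12 ± 0.16 and 0.01 ± 0.24 without that library. For Sema6d the difference was 1.36 ± 0.62 with all libraries and 1.06 ± 0.44 without that library, given as a description.

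Sema6d was chosen on these libraries, so the genotype comparisons were tested for the other 9 genes. With TGF-β1 present, none of these 9 passed the edgeR test between KO and fl/fl cells, beside 5 of all genes (0.0382%), or 0.0612% without the library labelled KO untreated replicate 1. Of the 9, 8 had a log2 fold change below 0, with a median of -0.20 against 0.01 over all genes. Plxna1 was the lowest at -0.45 ± 0.13 (edgeR adjusted p = 0.785), with each KO library below each fl/fl library. It was the 1 member lower without overlap, where 2.61% of all genes were so with all libraries and 2.61% without that library. Plxnd1 stood at -0.43 ± 0.14 and overlapped. Sema6d was on the other side, with a mean of 1.39 ± 0.504 CPM in KO TGF-β1 libraries and 0.709 ± 0.305 CPM in fl/fl TGF-β1 libraries (SD, n = 4 each), a log2 fold change of 0.96 ± 0.49 that is given as a description with no test, since these libraries are among those that chose the gene.

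In untreated cells, too, none of the 9 passed the edgeR test between KO and fl/fl, beside 6 of all genes (0.0459%), or 0.0994% without the library labelled KO untreated replicate 1. DESeq2 called 61 genes in this comparison and 24 with TGF-β1, and none of the 9 in either. At an unadjusted p under 0.05 edgeR had 3 of the 9 in untreated cells, where 1421 of all genes (10.9%) had such a p, and 2 with TGF-β1, where 734 (5.61%) did. Without the library labelled KO untreated replicate 1 these counts were 5 of the 9 beside 12% of all genes in untreated cells, and 2 of the 9 beside 6.68% with TGF-β1. Of the 9, 8 lay below 0 in untreated cells, with a median log2 fold change of -0.29 against 0.03 over all genes. Plxnd1 (-0.36 ± 0.14) and Nrp1 (-0.52 ± 0.25) were lower in KO with no overlap, a pattern that 4.11% of all genes shared. Without that library Plxna1 (-0.44 ± 0.12), Plxnc1 (-0.39 ± 0.15), Plxnd1 (-0.41 ± 0.14) and Nrp1 (-0.27 ± 0.11) were lower with no overlap, against 7.05% of all genes, and their lowest edgeR adjusted p was 0.265. Both genotype comparisons rest on libraries of their own, and the plexin values in both come with the library differences in gene length per read given above.

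The level of Sema6d over the libraries was set beside that of the other members and of all well-measured genes. Over the 16 libraries, on log2 CPM, Pearson's r with Sema6d was 0.91 for Sema4b, 0.90 for Nrp1 and 0.85 for Sema4a, 0.30 for Nrp2, and between -0.66 and -0.28 for the plexins and Sema4d. These libraries share treatment and genotype, so the values describe a pattern only. Of 10697 genes with an average log2 CPM of at least 1, the closest were Arhgap18 (r = 0.978), Lbr (0.973), Filip1l (0.970), Grk5 (0.968) and Ahr (0.967), and over 15 libraries 4 of these 5 stayed among the first 5. Arhgap18, which encodes a GTPase-activating protein, had 80.2 to 99.6 CPM in KO TGF-β1 and 98.4 to 198 CPM in KO untreated libraries, and 62.2 to 87.4 CPM in fl/fl TGF-β1 and 178 to 199 CPM in fl/fl untreated libraries. Its lowest KO untreated value, 98.4 CPM, again belonged to the library labelled replicate 1.

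The remaining genes of these families were mostly at few or no counts in these cells. Of 16 other semaphorins, 11 did not pass the filter on low counts, among them Sema3a, Sema3e and Sema7a, the best known ligands of Nrp1, Plxnd1 and Plxnc1, which had at most 0.0213, 0.0237 and 0.18 FPKM in any library. Of the 5 tested, 2 rose with TGF-β1 in KO cells, where 2.19% of all genes did, and 1 in fl/fl cells, where 7.87% did, and none fell. The 2 in KO cells were Sema4c and Sema3f, and Sema3f was close to the floor, with at most 18 counts and 0.262 FPKM in any library. These lists are short, and their counts are set beside the shares over all genes as a description only. Sema4c, a ligand of Plxnb2, had 22.1 ± 4.93 CPM in KO TGF-β1 and 11.7 ± 5.13 CPM in KO untreated libraries, and 22.4 ± 3.63 CPM in fl/fl TGF-β1 and 9.71 ± 2.15 CPM in fl/fl untreated libraries (SD, n = 4 each). It rose by 0.92 ± 0.25 in KO (edgeR adjusted p = 0.0393) and by 1.20 ± 0.25 in fl/fl cells (edgeR adjusted p = 0.00331). Sema4c and Sema4b, of the same class, thus changed in opposite directions.

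Of 5 other plexins, 4 were tested, with none called in KO cells and 1 higher in fl/fl cells, beside 7.87% of all genes. Plxna4 had 6.64 ± 1 CPM in KO TGF-β1 and 2.78 ± 4.1 CPM in KO untreated libraries, and 6.96 ± 1.27 CPM in fl/fl TGF-β1 and 0.647 ± 0.456 CPM in fl/fl untreated libraries. The KO untreated spread came from the library labelled replicate 1, at 8.93 CPM, against at most 0.93 CPM in the other 3. Plxna4 rose by 3.44 ± 0.75 in fl/fl cells (edgeR adjusted p = 0.00548), and in KO cells it had 1.25 ± 0.65 with all libraries (edgeR adjusted p = 0.348) and rose by 3.20 ± 0.36 without that library (edgeR adjusted p = 3.61e-06).

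Of 9 tested other receptors, none was called in KO cells and 2 rose in fl/fl cells, beside 7.87% of all genes. Flt1, the VEGF receptor 1, had 29.4 ± 2.67 CPM in KO TGF-β1 and 7.56 ± 10.1 CPM in KO untreated libraries, and 31.3 ± 2.61 CPM in fl/fl TGF-β1 and 3.32 ± 1.12 CPM in fl/fl untreated libraries. It rose by 3.26 ± 0.63 in fl/fl cells (edgeR adjusted p = 0.00316), and in KO cells it had 1.95 ± 0.58 with all libraries (edgeR adjusted p = 0.0695) and rose by 3.56 ± 0.23 without the library labelled KO untreated replicate 1. Cd72, a receptor for Sema4d known from B cells, rose by 0.45 ± 0.15 in fl/fl cells (edgeR adjusted p = 0.0459), a call lost when any of 9 single libraries was left out. It had the same value of 0.45 ± 0.15 in KO cells (edgeR adjusted p = 0.0849). Trem2, Tyrobp and Itgb1 were not called in any comparison. Of 6 tested ligands of neuropilins other than semaphorins, 1 rose in KO cells, beside 2.19% of all genes, and 2 in fl/fl cells, beside 7.87%. Pdgfb rose by 1.38 ± 0.26 in KO (edgeR adjusted p = 0.011) and 1.71 ± 0.26 in fl/fl cells (edgeR adjusted p = 0.000832). Hgf rose by 1.46 ± 0.37 in fl/fl cells (edgeR adjusted p = 0.0154) and had 1.20 ± 0.37 in KO cells (edgeR adjusted p = 0.0779). With the library labelled KO untreated replicate 1 left out, Hgf rose by 1.84 ± 0.26 in KO cells (edgeR adjusted p = 3.93e-05).

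Of 31 tested effectors that act downstream of plexins, 1 rose and 1 fell in KO cells, and 3 rose and 3 fell in fl/fl cells. Over all genes 2.19% rose and 2.97% fell in KO cells and 7.87% rose and 7.61% fell in fl/fl cells, so the effectors were called about as often as all genes. Rnd3, an atypical small GTPase that loosens actin stress fibres, fell, with a log2 fold change of -3.19 ± 0.46 in KO cells (edgeR adjusted p = 0.00689) and -3.78 ± 0.48 in fl/fl cells (edgeR adjusted p = 0.000461). It had 3.16 ± 1.07 CPM in KO TGF-β1 and 28.8 ± 15.9 CPM in KO untreated libraries, and 2.25 ± 0.794 CPM in fl/fl TGF-β1 and 30.8 ± 4.25 CPM in fl/fl untreated libraries. Cdk5r1, the activator of the kinase Cdk5, rose by 1.84 ± 0.46 in KO (edgeR adjusted p = 0.0324) and 3.59 ± 0.52 in fl/fl cells (edgeR adjusted p = 0.000722). Mical2, which oxidises actin, rose by 2.54 ± 0.47 in fl/fl cells (edgeR adjusted p = 0.00245) and had 1.08 ± 0.44 in KO cells (edgeR adjusted p = 0.203). With the library labelled KO untreated replicate 1 left out, Mical2 rose by 2.00 ± 0.24 in KO cells (edgeR adjusted p = 6.94e-06). In fl/fl cells Pip5k1c, a kinase that makes PIP2, rose by 0.42 ± 0.11. In KO cells it had 0.26 ± 0.11 (edgeR adjusted p = 0.2), and 0.38 ± 0.10 without that library (edgeR adjusted p = 0.0114). Rap1a and Rap1b, the GTPases on which plexins act, fell in fl/fl cells, with log2 fold changes of -0.78 ± 0.20 and -0.44 ± 0.14. Their lowest fl/fl TGF-β1 values were 27.3 and 200 CPM, against group medians of 65.4 and 324 CPM. In KO cells they had -0.41 ± 0.20 and -0.13 ± 0.14 and were not called with or without that library. The fl/fl call of Rap1b (edgeR adjusted p = 0.0395) was lost when any of 7 single libraries was left out.

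Of 11 genes of semaphorin reverse signalling and shedding, all tested, none rose and 1 fell in KO cells, and 2 rose and 2 fell in fl/fl cells, beside the same shares over all genes of 2.19% and 2.97% in KO cells and 7.87% and 7.61% in fl/fl cells. Pparg, the lipid-sensing nuclear receptor linked to Sema6d in mouse macrophages, fell, with a log2 fold change of -0.79 ± 0.21 in KO (edgeR adjusted p = 0.0391) and -1.40 ± 0.21 in fl/fl cells (edgeR adjusted p = 0.000722). It had 11.9 ± 2.73 CPM in KO TGF-β1 and 20.6 ± 6.84 CPM in KO untreated libraries, and 11.7 ± 1.18 CPM in fl/fl TGF-β1 and 30.9 ± 2.88 CPM in fl/fl untreated libraries. Fabp4, a lipid chaperone and known target of Pparg, fell by 1.49 ± 0.45 in fl/fl cells (edgeR adjusted p = 0.0311, lost when any of 4 single libraries was left out) and had 0.41 ± 0.43 in KO cells, at 0.834 to 3.87 CPM in KO TGF-β1 and 1.05 to 2.21 CPM in KO untreated libraries. Vasp, an actin regulator of the Ena/VASP family, rose by 0.56 ± 0.12 in fl/fl cells (edgeR adjusted p = 0.00374) and had 0.18 ± 0.12 in KO cells (edgeR adjusted p = 0.49). Adam10, a sheddase, rose by 0.68 ± 0.21 in fl/fl cells (edgeR adjusted p = 0.0323, lost when any of 7 single libraries was left out) and had 0.71 ± 0.21 in KO cells (edgeR adjusted p = 0.0568). With the library labelled KO untreated replicate 1 left out, Adam10 rose by 1.03 ± 0.16 in KO cells (edgeR adjusted p = 0.000166).

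**Figure D4:**
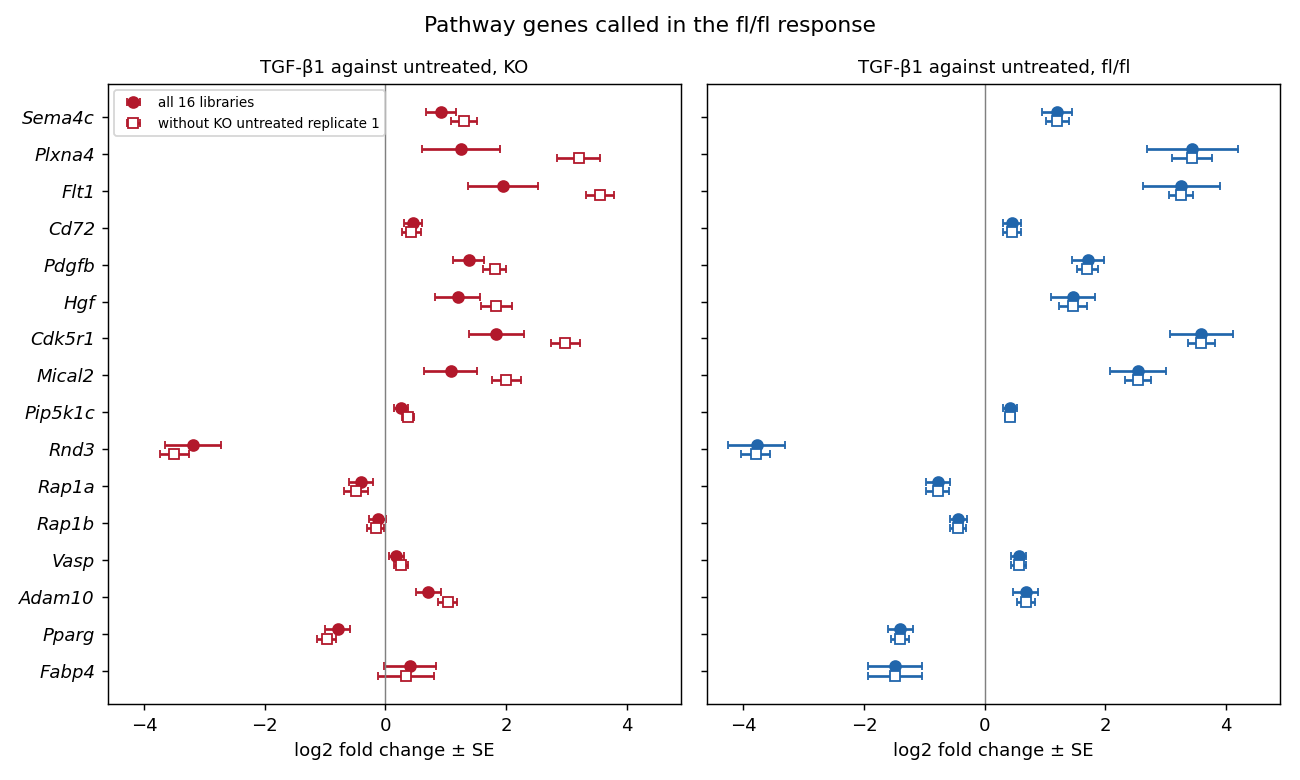
Log2 fold change ± SE (x axis) of the 16 named pathway genes (rows) for TGF-β1 against untreated in KO cells (left) and fl/fl cells (right), from edgeR, with all 16 libraries (filled circles) and without the library labelled KO untreated replicate 1 (open squares). In KO cells leaving out that library moves Plxna4 to 3.20 and Flt1 to 3.56, near their fl/fl values of 3.44 and 3.26.

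Without the library labelled KO untreated replicate 1, the counts in KO cells were 3 higher of 5 other semaphorins, 2 higher and 1 lower of 4 other plexins, 1 higher of 9 receptors, 2 higher of 6 neuropilin ligands, 4 higher and 1 lower of 31 effectors, and 2 higher and 2 lower of 11 reverse signalling and shedding genes. Over all genes 8.33% were higher and 6.88% lower in that fit. In fl/fl cells leaving out that library added 1 lower plexin, Plxna3, and 1 lower effector, Rock2, both named here after their values were seen, where 8.91% of all genes were higher and 9.23% lower. With all 16 libraries the KO calls of Sema4c, Cdk5r1 and Pparg were lost when any of 13, 7 and 13 single libraries was left out, to edgeR adjusted p values of at most 0.147, 0.12 and 0.174, and that of Pdgfb without KO untreated replicate 4 (0.051). Without the library labelled KO untreated replicate 1 their KO values were 1.30 ± 0.21 for Sema4c, 2.98 ± 0.24 for Cdk5r1, -0.97 ± 0.16 for Pparg and 1.81 ± 0.19 for Pdgfb, each called. Between KO and fl/fl cells no gene of these 6 lists was called by edgeR, with or without TGF-β1 and with or without that library.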

How the data were processed

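The submitters' processing notes name, with no role or order, Cufflinks 2.1.1, HTSeq 0.6.1, TopHat2 2.0.9 and the builds GRCm38.p6 and mm10. Counting options, strand included, are not given in the sources used here. The deposited table of raw counts holds whole-number read counts for 35275 genes, made by the authors. The authors' deposited FPKM equalled the count over gene length and library total within 0.1% for 100% of positive values. Libraries were polyadenylated RNA read as 150 bp pairs, per the labels, which list 16 libraries where their extraction protocol speaks of fewer. Nothing in the labels says that the 4 libraries of a group came from separate mice, so p-values measure the spread between these libraries, which may be technical.

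The members, the pathway and marker lists, the promoter motifs and the separate treatment of KO untreated replicate 1 were chosen with earlier results of these data known. CPM are counts relative to TMM-scaled totals. edgeR 4.0.16 (R 4.3.3) fitted a robust quasi-likelihood model with 1 mean per group to 16 libraries after filterByExpr (13080 genes), with Benjamini-Hochberg adjustment over all of them at 0.05. Log2 fold changes carry the SE implied by the F statistic. The model was also run on simulated counts, which had the same dispersion for all genes and no outlying library. That run therefore does not bear on the effect of the library labelled KO untreated replicate 1. With total counts of 16865591 to 23741079, Sema6d rested on 9 to 237 reads per library and Sema4b on 67 to 543. Alternatives were DESeq2 1.42.0, limma 3.58.1 on log2(FPKM + 1) and log2(FPKM + 0.1), other scalings, no filter, only the groups compared, each library left out, and a replicate block.

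Named genes are the 10 members, Smad7, the 5 genes most like Sema6d, and up to 3 rising and 3 falling genes with the lowest p in the fl/fl response from each pathway list. Mical3 had 2 rows and was left out. Same-numbered libraries deviated together in fl/fl cells (correlations of 0.123 to 0.181), less evenly in KO cells (0.075 to 0.239) and not between genotypes (-0.175 to 0.022). Differently numbered fl/fl libraries correlated as strongly in part (0.2 for TGF-β1 replicate 2 with untreated replicate 1), so the data do not single out the numbers as pairs. Instead, replicates 1 and 2 went together, as did replicates 3 and 4. Within each genotype, treated and untreated libraries of the same set correlated above 0. Those of different sets correlated below 0, at -0.216 to -0.044 in fl/fl and -0.237 to -0.08 in KO cells. No label says what the numbers mark. Such sets within a genotype were not fitted, so the SE and p-values may understate the spread.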

Additional observations from a re-analysis of the deposited data

Results flagged for a closer look

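In 4 of 40 combinations of gene and group, 1 of 4 libraries stood far from the other 3 by Dixon's test at the 95% level, which chance alone gives in about 1 of 20. Nrp1 was lowest in KO untreated replicate 1, at 195 CPM, where the other 3 had 594 to 675 CPM. Plxna1 was highest in the same library, at 615 CPM, where the other 3 had 465 to 488 CPM. Sema4a was lowest in KO TGF-β1 replicate 2, at 22.1 CPM, where the other 3 had 27.5 to 27.7 CPM. Plxnd1 was lowest in fl/fl TGF-β1 replicate 3, at 626 CPM, where the other 3 had 750 to 758 CPM.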

How the results depend on the processing

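The falls of Sema4a, Sema4b and Nrp1 in fl/fl cells were called in every alternative run, and no member outside Sema6d, which is untested, was called between genotypes or for the difference of the responses in any. In KO cells the number of members called was 0 with only the groups of the comparison fitted (3 with KO untreated replicate 1 also left out, an alternative chosen after seeing the data), and 1 to 4 when single libraries were left out. With a replicate block the KO fall of Sema4a was -0.55 (edgeR adjusted p = 0.0493) and the number of members called stayed at 3 in each genotype. The block ended the fl/fl calls of Cd72 (adjusted p = 0.0814) and Rap1b (0.0676), brought KO calls of Flt1 (2.41, adjusted p = 0.0295) and Adam10 (0.75, adjusted p = 0.0462), and changed no call of a member.

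Uncalled values close to 0 changed sign. For Sema4a, KO against fl/fl untreated, they were -0.014 with DESeq2's size factors, -0.009 without a filter, -0.013 in DESeq2 and -0.006 with a replicate block, and -0.096 to 0.12 with single libraries left out. With TGF-β1, Sema4a ran from -0.007 to 0.103 over left-out libraries, and Sema4d from -0.072 to 0.011, with 0.028 in limma at both pseudocounts. For TGF-β1 in KO cells, leaving out libraries gave -0.103 to 0.109 for Nrp2 and -0.167 to 0.711 for Fabp4, and Fabp4 had -0.005 with a replicate block and KO untreated replicate 1 left out. For the difference of the responses, left-out libraries gave -0.089 to 0.127 for Sema4a, -0.202 to 0.003 for Plxna1, -0.151 to 0.161 for Plxnb2, -0.032 to 0.175 for Plxnc1 and -0.157 to 0.079 for Plxnd1. Upper quartile scaling gave -0.011 for Sema4a and -0.023 for Plxnb2, and the block without KO untreated replicate 1 gave -0.118 for Sema4a, 0.016 for Plxna1 and 0.022 for Plxnd1. The cause was not tested.

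Over all genes DESeq2 called 1093 for TGF-β1 in KO cells, where edgeR called 676, and edgeR on the KO groups alone called 0 (1880 at an unadjusted p under 0.05). Sema6d depends on the scale: its fl/fl log2 fold change was -1.15 on log2(FPKM + 1), a scale on which the pseudocount of 1 is close to its untreated level.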
